A study of Mus musculus with 12 samples.

Results

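The genes described here are a set of 33 known for meiotic recombination and chromosome synapsis, picked by name from the table of normalised gene counts. The table held a row for 32 of them among 47730 features in all, and Spata22, the partner of Meiob on single-stranded DNA, was not analysed here. Values come from polyA RNA sequencing of testis and of skeletal muscle (gastrocnemius and plantaris) of male mice, with 12 libraries in 4 groups of 3. Wild-type mice (Bckdk+/+) were set against mice homozygous for a mutant allele of Bckdk (BckdkM/M), the gene of the kinase that shuts down branched-chain amino acid oxidation. All groups shared the C57BL/6J background after at least 10 generations of backcrossing, an age of 5 to 6 months, free access to food, and tissue collection at ZT6 to ZT7, the middle of the light phase. Letters stand for the mouse numbers of the columns. Wild-type libraries are A, B and C in both tissues, those labelled mutant are D, E and F in testis and D, F and G in muscle, and a shared letter is the same mouse. Values per library are listed in that order of letters, wild type first.

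In meiosis, germ cells replicate their DNA once and then pass through both meiotic divisions without a further replication. Homologous chromosomes must therefore first find each other and be joined by crossovers. Stra8 and its partners switch on the programme in preleptotene spermatocytes, cohesins and axis proteins fold each chromosome into loops, and SPO11 cuts the DNA at hotspots that PRDM9 marks. DMC1 and its helpers use the homologue to repair the cuts, the synaptonemal complex zips the paired axes together, and a minority of repair sites mature into crossovers. The mouse testis carries all these stages at once, because waves of spermatogonia enter meiosis throughout adult life, whereas muscle has no germ cells.

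Reads counted to features, recovered from the normalised values, came to 12852427 to 15795722 per library. The lowest total, of testis library D, leaves out 26 missing values. Bckdk separated the genotypes in muscle, with 2214, 2421 and 2627 normalised counts in wild-type libraries against 14.8, 14.3 and 12.4 in mutant ones. In testis it went against the labels, at 67.95, 73.3 and 71.0 in wild-type libraries against 138, 119 and 114, with a log2 difference of 0.79 and an adjusted p of 0.349 by limma. NeoR, a feature of the table that carries the name of a neomycin resistance gene, averaged 2.54 ± 0.79 (SD, n = 3) in wild-type testis and 17.2 ± 3.6 (SD, n = 3) in the libraries labelled mutant. In muscle NeoR averaged 3.13 ± 0.79 (SD, n = 3) in wild-type libraries and 242 ± 30.3 (SD, n = 3) in mutant ones. NeoR was thus higher in every library labelled mutant, in both tissues. Because Bckdk went against the labels in testis, each testis difference given here is between wild-type libraries and libraries labelled mutant. Genes that mark germ and somatic cells of the testis were all detected there. The sum over 8 skeletal muscle genes was 212 in testis library B and 6018 in A against 12570 to 14240 in the other 4 testis libraries, and the sum over 8 pancreatic islet genes was 17860 in A and 17690 in B against 9807 to 12770 in the others.

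Promoters are printed first for 4 genes, chosen to show what the motif counts refer to. Sycp3 and Hormad1 carry 2 motifs, Sycp1 carries 1 of them, and Mlh3 carries neither. Each is the RefSeq stretch of 250 bases before an annotated start, on GRCm38.p6, written 5′ to 3′ along the gene. Capitals mark CACGTG, an E-box bound by MGA with MAX, and TCCCGC, bound by E2F6, which reads GCGGGA on the opposite strand. Both factors belong to a Polycomb complex known for silencing germ-line genes in somatic cells.
Sycp3, chr10:88459337-88459586, plus strand: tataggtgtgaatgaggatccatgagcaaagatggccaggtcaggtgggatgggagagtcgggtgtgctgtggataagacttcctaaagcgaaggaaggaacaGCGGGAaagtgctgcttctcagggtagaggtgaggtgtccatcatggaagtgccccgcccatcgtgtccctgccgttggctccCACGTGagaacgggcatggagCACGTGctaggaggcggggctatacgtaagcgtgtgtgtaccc
Hormad1, chr3:95559427-95559676, plus strand: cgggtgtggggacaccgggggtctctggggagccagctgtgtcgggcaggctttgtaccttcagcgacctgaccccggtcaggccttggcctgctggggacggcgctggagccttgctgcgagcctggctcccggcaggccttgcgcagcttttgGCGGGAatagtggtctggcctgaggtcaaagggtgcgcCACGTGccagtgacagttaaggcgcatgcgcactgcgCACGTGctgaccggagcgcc
Sycp1, chr3:102936101-102936350, minus strand: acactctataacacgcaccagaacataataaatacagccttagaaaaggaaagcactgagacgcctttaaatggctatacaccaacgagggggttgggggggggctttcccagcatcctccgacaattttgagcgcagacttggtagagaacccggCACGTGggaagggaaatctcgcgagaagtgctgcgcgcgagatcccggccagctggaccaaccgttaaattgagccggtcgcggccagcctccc
Mlh3, chr12:85270592-85270841, minus strand: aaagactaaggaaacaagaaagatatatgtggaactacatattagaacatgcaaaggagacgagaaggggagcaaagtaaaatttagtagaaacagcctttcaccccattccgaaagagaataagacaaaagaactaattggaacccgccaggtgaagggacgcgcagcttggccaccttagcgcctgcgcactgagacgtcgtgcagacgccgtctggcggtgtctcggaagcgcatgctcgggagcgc

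The RefSeq table held 32 such windows for 27 of the 33 genes, some with several starts. CACGTG occurred in 7 of the 32 windows (21.9%), against 6.02% of all 32851 windows of the same length in the table. TCCCGC occurred in 18 of the 32 (56.2%), against 16.9% of all windows. The pair occurred together in 5 windows (15.6%), those of Sycp3, Syce2, Tex12 and Hormad1, against 1.45% of all windows. CNCCTCAG, the motif described for STRA8 with MEIOSIN, was in 5 windows (15.6%), of Syce2, Hormad2, Prdm9, Msh5 and Hfm1, against 6.42% of all windows. These letters are matches and not sites of measured binding, and none of the 3 motifs contains another. All 3 were searched on both strands, and CACGTG reads the same on each. Several windows of a gene share bases, so the windows are not independent.

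Levels in wild-type testis spanned a wide range once set per kilobase of exon. Syce1, a central element protein, stood highest at 2019 normalised counts per kilobase, followed by Sycp3 at 1473, the cohesin subunits Stag3 at 1037 and Smc1b at 938, and then Sycp1 at 766 and Sycp2 at 755 as the mean of 3 libraries. The recombinase Dmc1 was at 85.9 per kilobase and Spo11 at 201.4. The lowest were Rnf212 at 31.8, Prdm9 at 20.6 and the kleisin Rad21l at 19.4 per kilobase. The 6 highest levels thus all belonged to structural proteins of the axis or of the synaptonemal complex. Among them, Sycp3 shares 52.2% of its exon length with Chpt1 on the opposite strand, and reads of Chpt1 cannot be told apart from its own. The 3 lowest belonged to a crossover factor, the hotspot factor and a cohesin subunit.

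**Figure D1:**
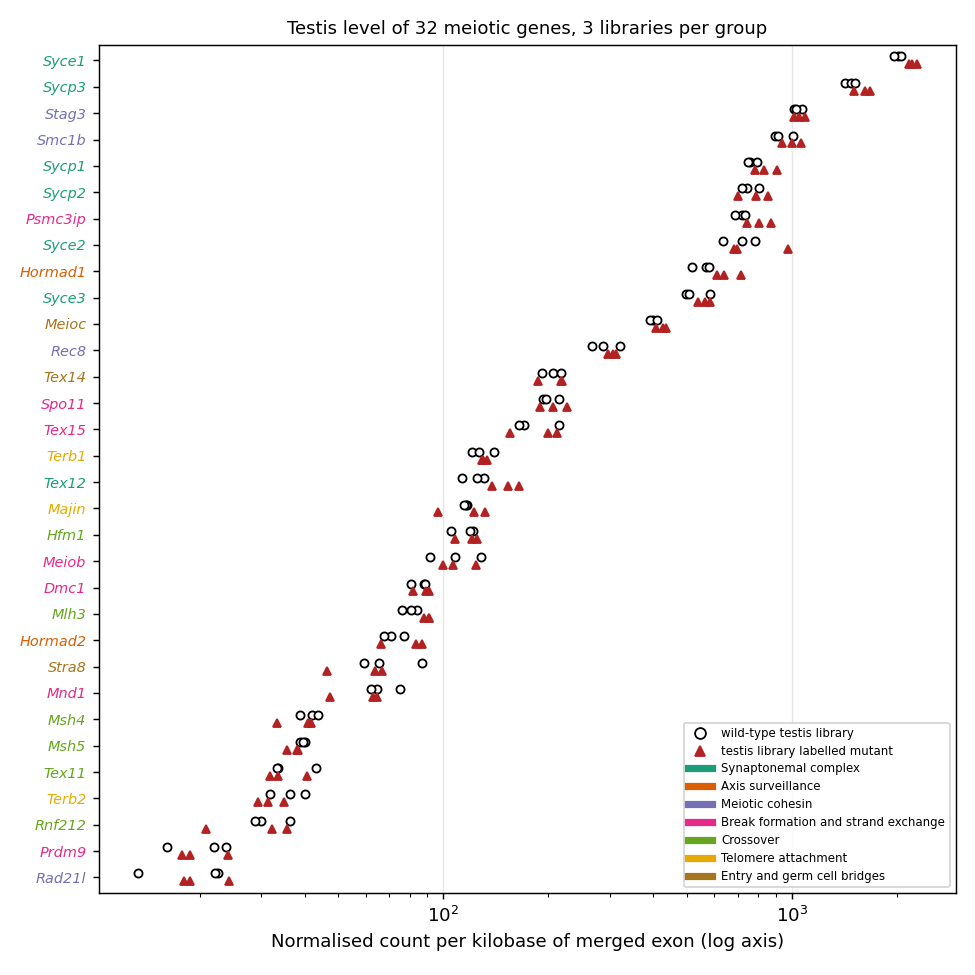
Testis level of each gene, on a log10 axis of normalised counts per kilobase of exon. Each of the 3 wild-type libraries and the 3 labelled mutant has a point. Genes are sorted by their wild-type level, and the colour of the name gives the role. Syce1 stands highest, Prdm9 and Rad21l lowest, and the 2 groups lie close together for each gene.

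No gene of the set passed the test between the testis groups. All 32 were measured above the filter in testis, and 0 of 32 were called at an adjusted p below 0.05 (limma, Benjamini-Hochberg over 19543 genes), in a comparison in which 0.0205% of all genes were called. DESeq2 and edgeR on reads recovered from the normalised values also called 0 of 32. At an unadjusted p below 0.05 there were 5 of 32, where 7.09% of all genes passed. All 5 were higher in the libraries labelled mutant, as were 5.57% of all genes, with 1.52% lower. The log2 difference was above 0 for 23 of 32 genes (71.9%) against 59.6% of all genes tested, with a median of 0.043 against 0.034. Scaled by TMM, 17 of 32 were above 0 against 51.2% of all genes, with medians of 0.013 and 0.004, and 1 of 32 had an unadjusted p below 0.05 against 5.4% of all genes. In whole tissue, fewer cells of a type and less RNA per cell cannot be told apart.

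The synaptonemal complex consists of lateral elements (Sycp2, Sycp3), a transverse filament (Sycp1) and a central element (Syce1, Syce2, Syce3, Tex12). All 7 had a log2 difference above 0 in testis, from 0.05 to 0.30 with a median of 0.12, where 59.6% of all genes tested did. Of these 7 genes, 0 were called. With 1 library left out, Sycp2 fell as low as -0.02 and Syce2 as low as -0.04. Without the wild-type libraries A and B, which had the most islet transcripts, C was the only wild-type library left, and Sycp2 turned to -0.05. Syce1 stood at 2955, 3013 and 2877 normalised counts in wild-type libraries against 3226, 3331 and 3170. The groups did not overlap for Syce1, whose log2 difference was 0.14 (SE 0.05, limma adjusted p = 0.6955). Tex12, a small partner of Syce2, stood at 133, 127 and 115 against 140.1, 156 and 168, again without overlap, at a log2 difference of 0.30 (SE 0.13, limma adjusted p = 0.6955).

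Syce2 itself was at 1546, 1412 and 1252 in wild-type testis and at 1344, 1914 and 1369 in D, E and F. Library E was the highest of the 6, and D and F lay among the wild-type values. Sycp1 was at 2691, 2656 and 2827 against 3228, 2788 and 2952, with E below the highest wild-type library, so the groups overlapped. Its log2 difference was 0.13 (SE 0.06, limma adjusted p = 0.7051). Sycp3, the lateral element protein used to stain meiotic chromosomes, was at 1799, 1864 and 1923 against 1909, 2114 and 2057, and the groups overlapped because D lay just under C. Sycp2 ranged from 4283 to 4800 in wild-type libraries and from 4177 to 5113 in those labelled mutant, and Syce3 from 276 to 323 and from 297 to 323.

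HORMAD1 and HORMAD2 sit on axes that have not yet synapsed and are stripped off as the complex forms. Hormad1, at chr3:95559677-95587671 on the plus strand of GRCm38, stood at 895, 979.5 and 1003 in wild-type libraries against 1234, 1056 and 1104, so every library labelled mutant lay above every wild-type one. Its log2 difference of 0.24 (SE 0.08) had the smallest unadjusted p of the set, 0.009246, and an adjusted p of 0.6955 by limma over all genes. Over the alternative settings the adjusted p for Hormad1 ran from 0.169 to 0.9999. Hormad2 was at 194, 185 and 210.5 against 238, 181 and 228, and E was the lowest of the 6 libraries.

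The meiotic cohesins hold sister chromatids together and give the axis its base. Stag3, the subunit shared by all meiosis-specific complexes, was at 5818, 6135 and 5880 in wild-type libraries against 5835, 6020 and 6272, with a log2 difference of 0.02 (SE 0.05). The groups of Stag3 overlapped, with D and E among the wild-type values and F above them. Smc1b ranged from 3625 to 4068 and from 3795 to 4299 in the groups, and the kleisin Rec8 from 784 to 944 and from 874 to 918. Rad21l, the other meiotic kleisin, had 22.1, 37.5 and 36.8 normalised counts in wild-type libraries against 40.3, 29.8 and 31.1, from 114 and 111 reads per group. All 4 cohesin differences were above 0 and at most 0.10 on the log2 scale, apart from Stag3 at -0.01 with TMM scaling, and 0 of 4 were called. Of all genes tested, 59.6% lay above 0.

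Among genes that make and repair the breaks, Psmc3ip (HOP2), which loads DMC1 onto the homologue together with Mnd1, was at 1311, 1337 and 1251 in wild-type libraries against 1467, 1586 and 1351. Its groups did not overlap, and the log2 difference was 0.17 (SE 0.07, limma adjusted p = 0.6955). Mnd1, its obligate partner, was at 56.5, 65.8 and 54.3 against 56.5, 41.4 and 55.1, a log2 difference of -0.21 (SE 0.20, limma adjusted p = 0.8506) with E lowest. The groups of Mnd1 overlapped, and its difference was about the size of its SE. With TMM or median-of-ratios scaling the groups of Psmc3ip overlapped as well. The differences of these partners thus had opposite signs, but neither passed the test.

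Prdm9, the zinc finger methyltransferase that sets hotspots, was at 94.4, 102 and 69.3 in wild-type testis and at 80.7, 104 and 76.4 in the libraries labelled mutant. These groups overlapped, with a log2 difference of -0.02 (SE 0.19). Spo11 ranged from 757 to 842 and from 742 to 890.3, and Dmc1 from 197 to 216 and from 199.7 to 222. Meiob, which coats single-stranded DNA with RPA, ranged from 165 to 231 and from 179.5 to 223. Tex15, a factor needed for repair of the breaks and for transposon silencing, ranged from 1583 to 2060 and from 1495 to 2045. Log2 differences of Spo11, Dmc1, Meiob and Tex15 lay between 0.01 and 0.05, with Meiob at -0.02 under TMM scaling, and 0 of the 7 genes of this group were called.

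Crossover factors gave the only gene of the set whose groups separated downwards. Msh5, which forms a clamp with Msh4 around recombination intermediates, was at 221.5, 214 and 219 in wild-type libraries against 212, 196 and 210.5. The highest library labelled mutant lay just under the lowest wild-type one, and the log2 difference was -0.08 (SE 0.10, limma adjusted p = 0.8851). Msh4 was at 289.5, 268 and 301.5 against 288, 229.5 and 282, with E lowest and the groups overlapping. Mlh3, part of the endonuclease that resolves crossovers, was at 633, 610.5 and 575 against 688, 666 and 689, without overlap. Its log2 difference was 0.17 (SE 0.07, limma adjusted p = 0.6955).

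The remaining crossover genes were the SUMO ligase family member Rnf212 (47.6 to 59.97 against 34.3 to 58.8), the helicase Hfm1 (703 to 813 against 722.5 to 834) and the X-linked Tex11 (121 to 156 against 115 to 147). The groups overlapped for all 3. The median log2 difference of the 6 crossover genes was -0.07, and 2 of 6 lay above 0, against 59.6% of all genes tested.

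Counted over the whole set, groups did not overlap for 5 genes higher in the libraries labelled mutant (Hormad1, Syce1, Tex12, Psmc3ip, Mlh3), where 9.72% of all genes tested did the same, and for 1 lower gene (Msh5), where 3.67% did. With TMM scaling Psmc3ip left and Meioc joined the 5 higher genes, against 6.41% of all genes, and with median-of-ratios scaling 4 higher genes were left, without Psmc3ip, against 6.18%. With 1 library left out the median difference of the set ran from 0.025 to 0.090. It was highest without library E, where the median of all genes tested was 0.041.

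**Figure D2:**
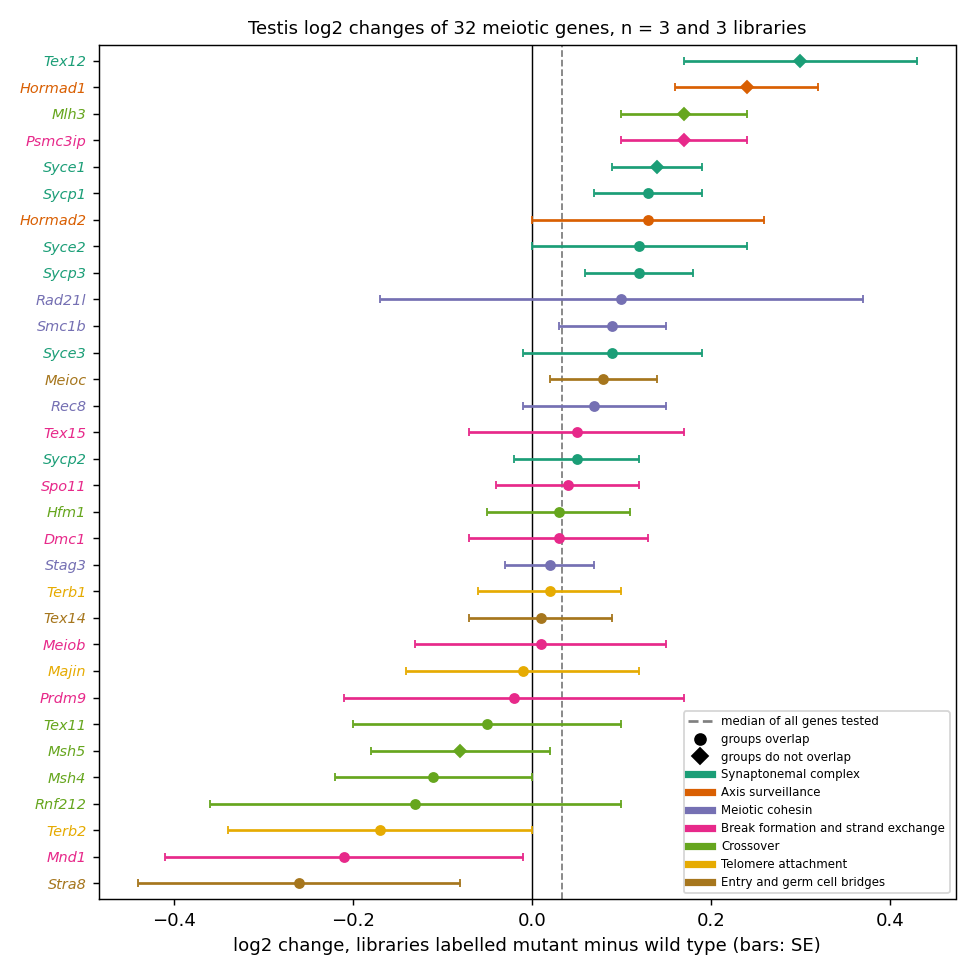
Log2 difference in testis, labelled mutant minus wild type, for each of the 32 genes, with bars of 1 SE from limma. Genes are sorted by the difference and coloured by role. Differences run from -0.26 for Stra8 to 0.30 for Tex12, and the 7 synaptonemal complex genes all lie above 0, as do 59.6% of all genes tested.

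At chromosome ends, MAJIN, TERB1 and TERB2 tie telomeres to the nuclear envelope so that chromosomes can be moved while they pair. Majin was at 192, 191 and 189 in wild-type libraries against 200.6, 158 and 216, a tight wild-type group inside a wider one. Terb1 ranged from 454 to 524 against 483 to 499.6, and Terb2 from 67.1 to 84.96 against 62.2 to 73.6. Log2 differences of these 3 genes were -0.01, 0.02 and -0.17, and 0 of 3 were called.

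Stra8, the gatekeeper of meiotic entry that retinoic acid induces, was at 157, 107 and 118 in wild-type libraries against 115, 120.1 and 83.5. Wild-type library A alone lay above all those labelled mutant, F alone lay below all wild-type ones, and the log2 difference was -0.26 (SE 0.18, limma adjusted p = 0.7899). Meioc, which with YTHDC2 keeps germ cells in meiotic prophase, ranged from 1812 to 1897 and from 1882 to 2010. Tex14, which keeps the bridges between germ cells open, ranged from 962 to 1092 and from 935 to 1100. Neither was called, at log2 differences of 0.08 and 0.01.

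Library E differed from the other libraries labelled mutant by medians that varied with the role of the genes. Relative to the wild-type mean, the median of the 7 synaptonemal complex genes was 0.18 (log2) in E against 0.13 in D and 0.11 in F. The median of the 6 crossover genes was -0.12 in E against 0.06 in D and 0.01 in F, and that of the 3 telomere genes was -0.19 in E and between -0.01 and 0.01 elsewhere. E held the lowest of the 6 values for 10 of 32 genes, where 18.8% of all genes had their lowest value there, and D the highest for 9, where 23.3% of all genes did. What set E apart was not tested.

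**Figure D3:**
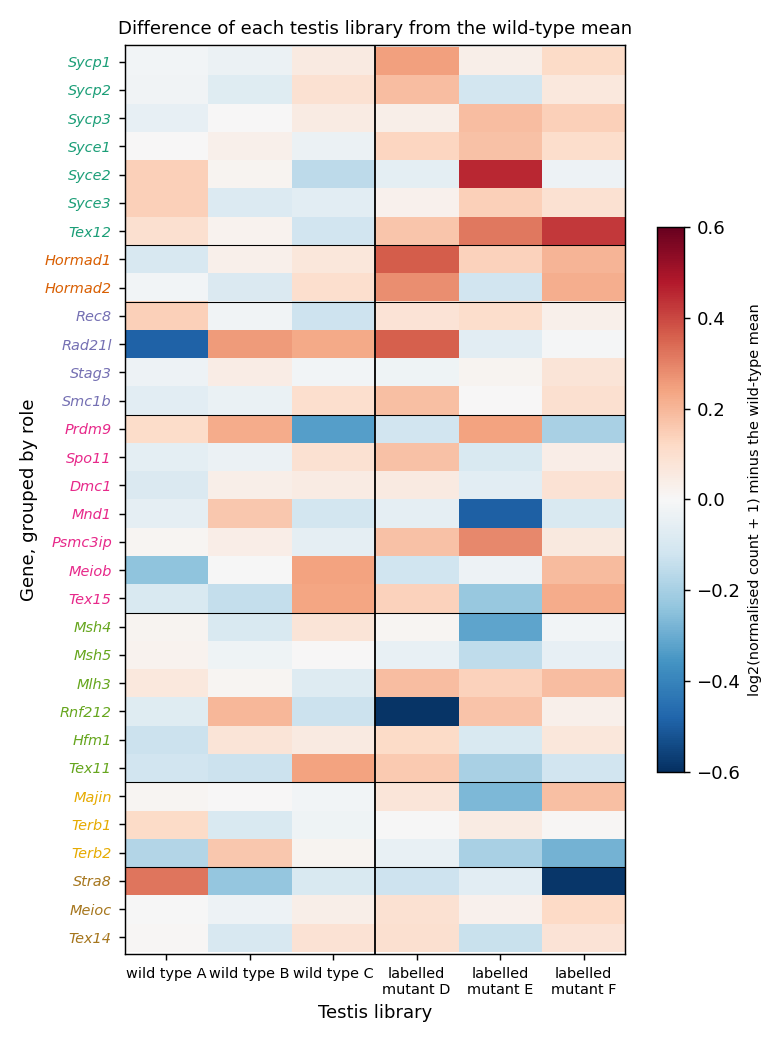
Difference of each testis library from the wild-type mean, in log2(normalised count + 1), for each gene (rows, by role) and library (columns A to F), as colour from blue (lower) to red (higher). Column E shows Syce2 in red and Mnd1, Msh4 and Majin in blue.

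Summed markers of testis cell types gave separate groups for some types and overlapping ones for others. The summed normalised count of 10 genes of pachytene and later spermatocytes was 83200 to 85970 in wild-type testis and 89880 to 90600 in the libraries labelled mutant. That of 8 genes of elongating spermatids was 179700 to 195700 against 198800 to 208300. For 10 spermatogonial genes it was 1709 to 1788 against 1799 to 1994, and for 8 Sertoli cell genes 1708 to 1838 against 1724 to 1993. Sums for spermatocytes, elongating spermatids and spermatogonia were thus higher in each library labelled mutant, and those for Sertoli cells overlapped. The spermatogonial groups came as close as 1788 and 1799. Log2 differences were above 0 for 6 of 9 spermatogonial genes tested, 8 of 10 of spermatocytes and 8 of 8 of elongating spermatids. Of all genes tested, 59.6% lay above 0 under this scaling, and the sums were not computed under another. Sums also overlapped for 8 round spermatid genes (16880 to 17030 against 16560 to 18480, with E lowest), 7 Leydig cell genes (7250 to 7311 against 7298 to 9482) and 4 peritubular myoid genes (795 to 838 against 696 to 949). Endothelium (5 genes, 615 to 798 against 571 to 647) and macrophages (5 genes, 403 to 405 against 392 to 438) overlapped as well. None of the markers in these 9 lists was called, and their part in the values of the meiotic genes was not tested.

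A further 47 genes of the same processes were all in the table, and 46 passed the testis filter. None of the 46 was called, with 21 above 0 and 25 below and a median log2 difference of -0.008. Of all genes tested, 59.6% lay above 0, with a median of 0.034. The smallest unadjusted p among them, 0.0253, belonged to Gm4969 (Meiosin), the partner of Stra8, at 164, 193 and 159.5 in wild-type libraries against 166, 111 and 115. Its log2 difference was -0.42 (SE 0.16, limma adjusted p = 0.6955), and D lay among the wild-type libraries. Next came Fkbp6, a chaperone partner of the synaptonemal complex, at a log2 difference of 0.20, Ccdc155 (Kash5), which links telomeres to dynein, at -0.14, and Brca1 at -0.14. None of these 3 was called.

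Muscle served as the tissue without meiosis. In wild-type muscle 26 of the 32 genes were under 3% of their level in wild-type testis, and 6 were above it. Meiob was just inside the threshold at 2.72% and Msh5 just outside at 3.45%. Rad21l had 0 reads in all 6 muscle libraries, so its testis level was at least 9.16-fold higher, counting 3 reads per library as the limit for 0. Rnf212 and Terb2 had 0 reads in the 3 wild-type muscle libraries, which puts testis at least 14.9-fold and 21.8-fold higher. For the others of the 26 the testis mean was 36.7-fold (Meiob) to 151-fold (Tex15) the muscle mean.

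Stag3, the most abundant of these genes in testis by total count, had 47.8, 48.7 and 57.8 normalised counts in wild-type muscle against 59.3, 17.3 and 22.8 in mutant muscle. Sycp1 had 31.9, 29.2 and 25.7 against 46.8, 13.2 and 18.7. In both genes F and G were the lowest libraries and D the highest, and F and G were the lowest pair in 11 of the 26 genes. Over the 26 genes, the median level in percent of wild-type testis was 0.919, 0.915 and 0.957 in A, B and C, 1.55 in D, 0.343 in F and 0.534 in G. The 100 most abundant testis genes that were also under 3% in muscle had medians of 1.1, 1.04 and 1.23 in A, B and C, 1.3 in D, 0.465 in F and 0.464 in G. Sums of 8 markers of elongating spermatids were likewise lowest in F and G, at 989 and 666, against 2003 to 2723 in A to D, and 0 of the 8 markers were called in muscle. The part of such transcripts in the muscle values of the meiotic genes was not tested.

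**Figure D4:**
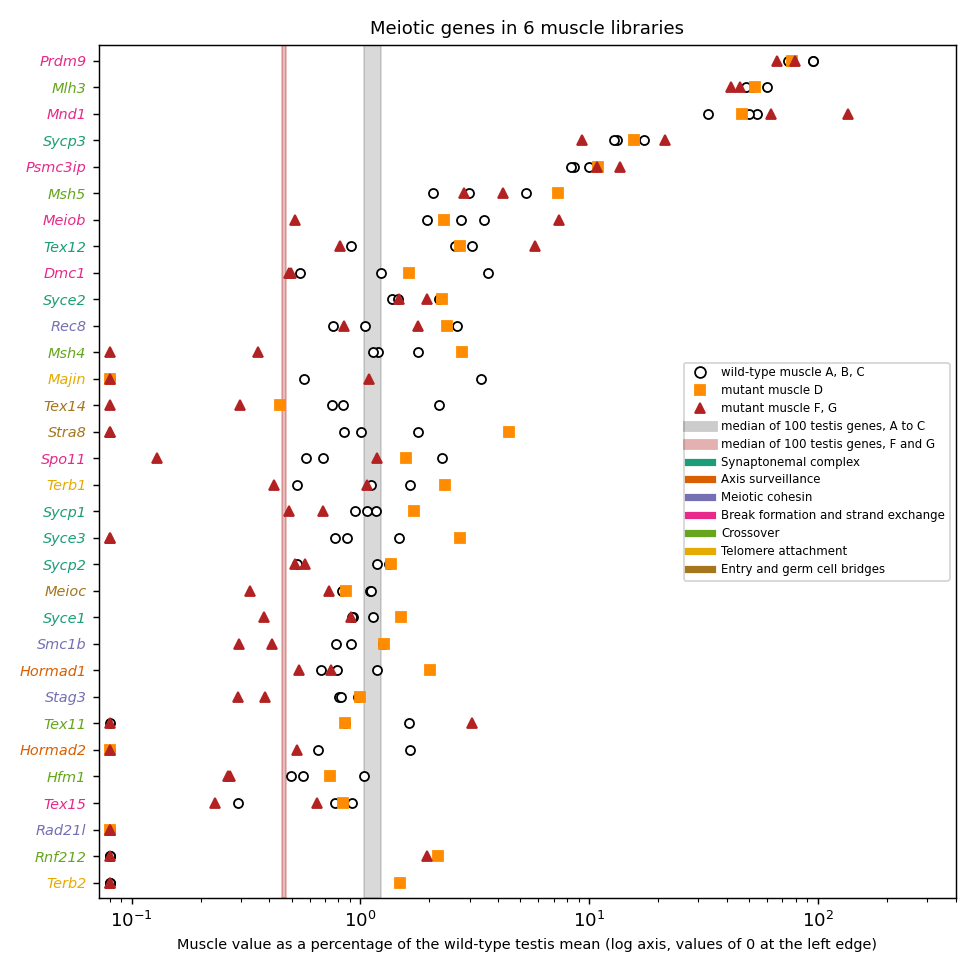
Muscle level of each gene in percent of its mean in wild-type testis (log10 axis), with a point for each of the 6 muscle libraries. Prdm9, Mlh3, Mnd1, Sycp3 and Psmc3ip lie at 8.30% or more in every library, while Msh5, at 2.09% to 7.32%, lies among genes such as Meiob, which reaches 7.36% in G.

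Prdm9 was the gene of the set with the most even levels between tissues. In muscle it was at 84.2, 84.4 and 65.5 in wild-type libraries against 68.4, 70.3 and 59.1, and its wild-type muscle mean was 87.95% of the testis mean. The wild-type tissue groups overlapped, with a log2 difference, testis minus muscle, of 0.17 (SE 0.22, limma adjusted p = 0.4756), and edgeR put it at -0.02. In the GENCODE annotation Prdm9 lies at chr17:15543079-15564354 on the minus strand of GRCm38, and no exon of another annotated gene overlaps its exons. Which part of the gene these reads covered was not analysed here.

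Mlh3 was at 362, 314 and 293 in wild-type muscle, 53.3% of testis, and Mnd1 at 31.9, 19.5 and 29.5, 45.8% of testis. Both were lower than in testis without overlap, with testis means 1.88-fold (limma adjusted p = 4.193e-05) and 2.18-fold (limma adjusted p = 0.004683) the muscle means.

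Sycp3 and Psmc3ip each share exon with a gene on the opposite strand, and how strand was counted is not given in the sources used here. Sycp3 was at 322, 247 and 240.1 in wild-type muscle, 14.5% of testis, and shares 660 bases (52.2% of its exon length) with Chpt1, which averaged 2785 in wild-type muscle and 2027 in wild-type testis. Psmc3ip was at 129.8, 111.5 and 108 in wild-type muscle, 8.95% of testis, and shares 385 bases (21.2%) with Mlx, at 257 in muscle and 86.4 in testis. For these genes, reads of the partner cannot be told apart from their own in either tissue. Msh5, the last of the 6, had 4.55, 6.49 and 11.5 in wild-type muscle and rests on 19 reads there.

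In the test of wild-type testis against wild-type muscle, 31 of 32 genes were higher in testis, all but Prdm9, where 50.6% of 19994 genes were. Of the 32, 14 had no wild-type muscle value of 10 or more, so they reached the filter through testis alone and had to differ. Hormad1, Rec8, Spo11, Msh5, Tex14 and Tex15 reached 10 in some wild-type muscle libraries but not in all. They too passed the filter only with their testis values. The count of 31 is thus given only as a description. Between the genotypes in muscle, 14 of the 32 genes passed the filter and 0 of 14 were called, where 0.0369% of 16246 genes were called. At an unadjusted p below 0.05 there were 0 of 14, where 9.52% of all genes passed, and DESeq2 and edgeR also called 0. Psmc3ip had groups that did not overlap, at 143, 141 and 178 in D, F and G, all above the wild-type libraries, with a log2 difference of 0.40 (SE 0.19, limma adjusted p = 0.5248), where 5.11% of all genes did the same. Groups were separated downwards for 0 of 14, against 8.85% of all genes, and the log2 difference was above 0 for 5 of 14, against 44.5%.

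The median log2 difference of the 14 genes in muscle was -0.224 against -0.040 for all genes tested, and it turned on single libraries. Without D it was -0.545, and Stag3 was then called (log2 difference -1.32, limma adjusted p = 0.04822, in a range of 0.04822 to 0.9998 over the alternatives for Stag3) together with 497 genes in all. Without F the median was 0.039, and without F and G, with D as the only mutant library left, it was 0.295. F and G also had islet gene sums of 29800 and 28180 against 12480 to 14640 in the other 4 muscle libraries, and the part of these transcripts was not tested.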

How the data were processed

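The authors deposited signal values per gene, made from read counts by dividing each library by its own size factor, and regularised log2 (rlog) values of 27384 features, per the file headers for the same 12 libraries. Dividing by the value of 1 read, estimated per library, gave whole numbers for 100% of the values, to within 0.001. Tools listed in the submitters' processing notes, with no roles, are DESeq2 1.46.0, HTSeq 0.11.2, HISAT2 2.1.0, fastp 0.23.4 and Picard 1.119, and the build is GRCm38.p4. Per the labels' protocols, RNA came from about 20 mg of tissue with RQN above 7.2, and reads were paired, 150 bases long.

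The genes, their roles and all other lists were chosen with earlier results of these data known. Normalised counts were compared as log2(value + 1) with limma 3.58.1 (lmFit, eBayes with trend, two-sided) in R 4.3.3, fitted over all genes with at least 10 in at least 3 of 6 libraries and adjusted by the Benjamini-Hochberg method. A log2 difference is on that scale and understates changes of low genes. With 3 libraries against 3, the smallest p of an exact permutation test for 1 gene is 0.10. The labels do not say that samples came from separate litters or days, so p-values measure the spread between these mice. All 33 genes are named, and of 47 other genes of the pathway those called or else the 4 with the smallest p. Levels per kilobase used merged exons of GENCODE M21 on GRCm38.

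Alternatives were pseudocounts of 0.5 and 8, no filter, a mean of at least 50, TMM and median-of-ratios scaling, the rlog values, edgeR 4.0.16 and DESeq2 1.42.0 on recovered reads, all 12 libraries in 1 model, each library left out, and the mouse as a block. The step of testis library D, 1.008, is close to 1, so that whole reads could not be told there from rounded values by the general check of units. Its recovered reads still entered edgeR and DESeq2, which are alternatives only. In that library 26 values had been turned into dates and were treated as missing, and none belongs to the set.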

Additional observations from a re-analysis of the deposited data

How the results depend on the processing

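No paired analysis was possible because the genotype groups are different mice, and the replicate numbers of the labels are not tied to the columns of the tables. The wild-type tissues do share mice. There letters mark the mouse, and same-mouse correlations of deviations over 14677 genes were -0.026, 0.009 and 0.005. With the mouse as a replicate block, 17403 genes were called against 17575 without it, and 31 of the 32 meiotic genes were higher in testis either way.

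In testis 0 of 32 genes were called under every alternative run. Over all genes, 4 were called, and 1 with a pseudocount of 0.5, a mean of at least 50, TMM scaling or median-of-ratios scaling. There were 2 with rlog values, 10 with DESeq2 and 1 to 6 with 1 library left out. Leaving out wild-type libraries A and B, a choice made after seeing the data, left C as the only wild-type library. The set's median of 0.043 was 0.013 with TMM, 0.010 with median of ratios, 0.006 with edgeR, 0.009 with DESeq2, 0.004 without A and B, and 0.025 to 0.090 with 1 library left out. Differences near 0 changed sign with the scaling. With TMM the log2 values were Stag3 -0.01, Dmc1 -0.00, Meiob -0.02, Hfm1 -0.00, Terb1 -0.01 and Tex14 -0.02. With median of ratios they were Stag3 -0.01, Dmc1 -0.01, Meiob -0.02, Hfm1 -0.00, Terb1 -0.02 and Tex14 -0.02. With edgeR they were Stag3 -0.01, Dmc1 -0.01, Meiob -0.03, Hfm1 -0.01, Terb1 -0.02 and Tex14 -0.02. With DESeq2 they were Stag3 -0.01, Dmc1 -0.01, Meiob -0.03, Hfm1 -0.01, Terb1 -0.02 and Tex14 -0.02. Without A and B, and so against library C alone, signs turned for Sycp2 -0.05, Rad21l -0.13, Smc1b -0.01, Prdm9 0.31, Spo11 -0.05, Dmc1 -0.02, Meiob -0.23, Tex15 -0.19, Hfm1 -0.02, Majin 0.01 and Tex14 -0.07. Ranges over leaving out each library that crossed 0 were Dmc1 -0.02 to 0.07, Hfm1 -0.04 to 0.09, Majin -0.10 to 0.13, Meiob -0.11 to 0.14, Prdm9 -0.19 to 0.09, Rad21l -0.15 to 0.22, Rnf212 -0.28 to 0.10, Spo11 -0.03 to 0.11, Stag3 -0.00 to 0.05, Syce2 -0.04 to 0.21, Sycp2 -0.02 to 0.12, Terb1 -0.03 to 0.08, Tex11 -0.16 to 0.07, Tex14 -0.03 to 0.09 and Tex15 -0.04 to 0.18.

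In muscle the 6 calls over all genes became 14 with no filter, 34 with DESeq2, 28 with all 12 libraries in 1 model, and 3 to 497 with 1 library left out. Calls among the meiotic genes ran from 0 to 1 and their median from -0.545 to 0.039 with 1 library left out. Leaving out mutant libraries F and G, also a choice made after seeing the data, left D as the only mutant library. The median of the meiotic genes was then 0.295. Without F and G, and so for library D alone, signs turned for Sycp1 0.68, Sycp2 0.52, Syce1 0.59, Stag3 0.21, Smc1b 0.38 and Tex15 0.45. Ranges that crossed 0 with 1 library left out were Rec8 -0.11 to 0.63, Syce1 -0.71 to 0.24, Sycp1 -0.83 to 0.04, Sycp3 -0.24 to 0.35 and Tex15 -0.67 to 0.28. Between the tissues, 17 to 31 genes were higher in testis with 1 library left out, because without a testis library fewer genes were tested, and edgeR put Prdm9 at -0.02. The cause of the other changes was not tested. Depth limits Rad21l, Rnf212 and Terb2 in muscle, where wild-type libraries hold 0 reads.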

Other observations

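Among the 47 further genes of meiotic recombination and synapsis, Rec114, which forms the break machinery with Mei4, was as even between the tissues as Prdm9, and it was chosen for mention after its values were seen. Rec114 was at 43.2, 49.98 and 55.95 normalised counts in wild-type testis and at 42.1, 33.5 and 57.8 in wild-type muscle, with a log2 difference of 0.18 (SE 0.27) and overlapping groups. Mei4 had 21 reads over the 3 wild-type testis libraries and 6 over those labelled mutant, and did not pass the filter. The cohesin subunit Smc1a, which Smc1b replaces on meiotic axes, was at 149, 165 and 139.5 in wild-type testis and at 708, 668 and 584 in wild-type muscle, the opposite order to Smc1b.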
